A study of Homo sapiens with 45 samples.

Results

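Day 14 and day 2 of a human motor neuron differentiation were compared across all genes, late against early. The comparison used 6 of the 45 libraries, 3 from each day, and tested 19436 of the 58233 genes in the deposited tables. The cells were of H9, a human embryonic stem cell line, so every library comes from 1 line. They were first taken to neuromesodermal progenitors, the bipotent cells of the tail bud that give spinal cord and trunk mesoderm, in the days before plating, in CHIR99021, bFGF, SB431542 and DMH1. From day 0 the plated cells received 100 nM retinoic acid (RA) and 500 nM SAG, an agonist of Smoothened that activates Hedgehog signalling, on both days compared. A ROCK inhibitor was present from plating until about day 2, so its removal and the passage of time from day 2 cannot be told apart. The labels call every sample ES-derived neural progenitor cells and give its treatment as control. They number 3 biological replicates a day without saying how they were kept apart. The p-values therefore measure the spread between libraries of the same day, estimated over all 45 libraries, and this spread may be technical.

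In the embryo, RA from the somites and Sonic hedgehog (SHH) from the notochord and floor plate turn neural progenitors of the spinal cord into ventral ones. Floor plate cells lie at the ventral midline, p3 progenitors next to them, and pMN progenitors, marked by OLIG2, give motor neurons. Progenitors later stop making neurons and make glia, a switch that NFIA and SOX9 take part in. A second clock runs through RNA: LIN28A and LIN28B block the maturation of the let-7 microRNAs, and let-7 in turn lowers LIN28 and other early growth regulators.

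The 6 libraries held 27413955 to 31594880 expected counts on day 2 and 38365188 to 38450001 on day 14. Levels are given as CPM, counts scaled to a common TMM-adjusted library total, which is not scaled for transcript length, so levels are compared for 1 gene between days and not between genes. A gene was called at a Benjamini-Hochberg adjusted p under 0.05 by edgeR's quasi-likelihood test. By this rule 7344 genes (37.8% of those tested) were higher on day 14 and 6490 (33.4%) were lower, 71.2% in all. Of these, 3843 (19.8%) were at least 2-fold higher and 2004 (10.3%) at least 2-fold lower. The 3 libraries of 1 day did not overlap with those of the other in 74.8% of genes. With so many calls, a gene list is read below against these shares and against the median log2 change of all genes tested, 0.05. Day 14 stood close to its neighbours: 61 genes were called between days 14 and 13, against 985 between days 14 and 12 and 787 between days 14 and 15.

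**Figure D1:**
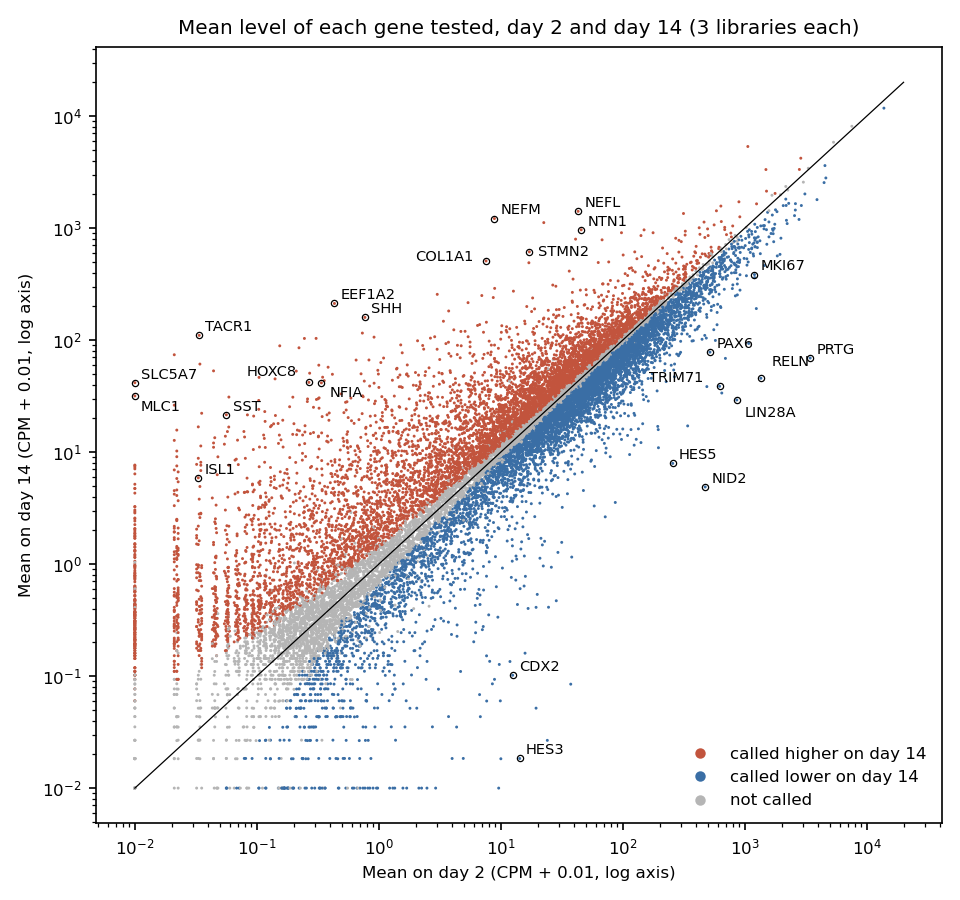
Mean level of each gene tested on day 2 (x axis) and day 14 (y axis), in CPM plus 0.01 on log axes, with 3 libraries a day. Points in red were called higher on day 14 and points in blue lower. Circled genes are named. The diagonal marks equal levels. SLC5A7 and MLC1 stand at the left edge because no read was counted for them on day 2, and PRTG, RELN and LIN28A lie far below the diagonal at high day 2 levels.

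The RNA regulators that hold cells in an early state fell almost as a group. Of 12 genes of the LIN28 and let-7 circuit, 11 fell and 1 rose, with a median log2 change of -1.61. LIN28A, the RNA-binding protein that blocks let-7, stood at 861, 865 and 851 CPM on day 2 and 29.7, 29.2 and 28.5 CPM on day 14 (log2 change -4.88, SE 0.08, adjusted p = 3.3e-36). Its paralogue LIN28B stood at 153, 156 and 157 CPM on day 2 and 31.1, 32.7 and 30.1 CPM on day 14 (log2 change -2.31, SE 0.08, adjusted p = 3.6e-26). TRIM71, a growth-promoting let-7 target known from worm timing mutants as lin-41, fell from 621 ± 8.4 to 38.6 ± 1.3 CPM (log2 change -4.01, SE 0.09, adjusted p = 5.7e-31), where the error of a level, here and below, is the SD over 3 libraries. For these 3 genes every day 2 library lay above every day 14 library, and the libraries of 1 day lay close together.

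The other members fell by less. HMGA2 and HMGA1, chromatin proteins of growing tissue, fell from 636 ± 14 to 195 ± 7.9 CPM and from 1942 ± 32 to 582 ± 35 CPM. IGF2BP1, which stabilises early growth messages, fell from 1845 ± 17 to 564 ± 24 CPM (log2 change -1.71, SE 0.04, adjusted p = 8.8e-31). MYCN and DICER1, the enzyme that cuts microRNA precursors, fell by 0.71 and 0.54 on the log2 scale. IGF2BP3 was the single member that rose, by 0.15 on the log2 scale (169, 171 and 169 CPM on day 2 and 181, 194 and 190.2 CPM on day 14).

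Among non-coding genes, the 5 with the highest rise by the same rule as the coding ones were LINC00461, LINC00261, MIR9-3HG, MIR100HG and MIR99AHG, and 4 of these 5 contain microRNA genes on their own strand. LINC00461 (chr5:88507546-88691041) gave 0.0331, 0 and 0 CPM on day 2 and 71.1, 79.7 and 70.8 CPM on day 14 (6219-fold higher with a 95% counting interval of 1116 to 245671, adjusted p = 8.2e-32). MIR9-3HG (chr15:89361579-89398487) gave 0.0663, 0.0362 and 0 CPM on day 2 and 52.9, 58 and 48.2 CPM on day 14 (1488-fold higher with a 95% counting interval of 509 to 7219.5, adjusted p = 1e-32). Both hosts carry a copy of miR-9, a microRNA of the developing nervous system, and were close to 0 on day 2. MIR100HG (chr11:122028327-122556721) rose from 0.366 ± 0.057 to 21.5 ± 2.5 CPM (log2 change 5.85, SE 0.21, adjusted p = 8.6e-25) and MIR99AHG (chr21:15928296-16645065) rose from 0.507 ± 0.12 to 22.5 ± 2.1 CPM (log2 change 5.45, SE 0.18, adjusted p = 7.6e-25). These libraries hold polyadenylated host RNA, so the levels are those of the hosts and the mature microRNAs were not measured.

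The mature 5p microRNAs inside the 4 hosts are shown because they fall into 4 seed families, each carried by 2 of the hosts. The sequences are from RefSeq (GRCh38.p14), 5′ to 3′, with the seed (bases 2 to 8) in capitals.
hsa-let-7a-5p (MIR100HG, chr11:122146568-122146589, minus strand): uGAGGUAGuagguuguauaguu
hsa-let-7c-5p (MIR99AHG, chr21:16539838-16539859, plus strand): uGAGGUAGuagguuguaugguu
hsa-miR-125b-5p (MIR100HG, chr11:122099809-122099830, minus strand, and MIR99AHG, chr21:16590253-16590274, plus strand): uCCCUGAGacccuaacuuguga
hsa-miR-100-5p (MIR100HG, chr11:122152275-122152296, minus strand): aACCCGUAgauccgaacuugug
hsa-miR-99a-5p (MIR99AHG, chr21:16539101-16539122, plus strand): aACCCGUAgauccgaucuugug
hsa-miR-9-5p (LINC00461, chr5:88666902-88666924, minus strand, and MIR9-3HG, chr15:89368032-89368054, plus strand): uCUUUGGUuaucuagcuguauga
In GENCODE 29 the microRNAs of MIR100HG, MIR99AHG and MIR9-3HG lie in introns of the host transcripts that span them, and in no exon. In LINC00461 the miR-9 sequence lies in an exon of 5 and an intron of 5 of the 16 annotated transcripts.

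The complement of the let-7 seed followed by A, CTACCTCA, is the strongest class of match to let-7. In the longest annotated 3′ UTR, 7 of the 12 genes of the circuit held it, against 4.18% of 14996 tested coding genes with a 3′ UTR. TRIM71 held 4 copies, IGF2BP1 3, LIN28B 2, and LIN28A, ARID3A, IGF2BP2 and IGF2BP3 1 each. Only 1 3′ UTR was read for each gene. A gene without the match there, such as HMGA2 with 0 in 7421 bases, may hold it in another transcript. The circuit was partly defined by let-7 regulation, so these matches are a description of the list. Examples are shown for the genes of the circuit with the match that fell most, the first site of each and the first 2 of TRIM71, with 11 bases on each side (GRCh38, message strand, 5′ to 3′, match in capitals).
LIN28A 3′ UTR (chr1:26427352-26427381, plus strand): agcctattgaaCTACCTCAtttttgccaat
LIN28B 3′ UTR (chr6:105078816-105078845, plus strand): ggttgcaaagtCTACCTCAtgcaagtatag
TRIM71 3′ UTR (chr3:32891972-32892001, plus strand): ttgcttaagtcCTACCTCAtctttattttt
TRIM71 3′ UTR (chr3:32892052-32892081, plus strand): ataatttctatCTACCTCAtaaatctttac
IGF2BP1 3′ UTR (chr17:49051065-49051094, plus strand): tgcgaagtaaaCTACCTCAaggtatgaagt
IGF2BP3, which rose, holds the same match (chr7:23311784-23311813, minus strand): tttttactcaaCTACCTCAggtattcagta
Over all 627 genes with the match, 248 were higher and 250 lower, with a median log2 change of 0.02 against 0.06 for all genes with a 3′ UTR. Their median 3′ UTR was 3145 bases against 1334. In the circuit only MYCN, with 910 bases, had a 3′ UTR shorter than 1334. Matches to other seeds of the hosts were also found in the circuit. The miR-125 match, CTCAGGGA, was in ARID3A, ARID3B, LIN28A, LIN28B and TRIM71, against 5.85% of the 14996 genes. The miR-9 match, ACCAAAGA, was in ARID3B, IGF2BP2, IGF2BP3 and TRIM71, against 4.77%. The miR-99/100 match, TACGGGTA, was in no gene of the circuit, against 0.267%.

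**Figure D2:**
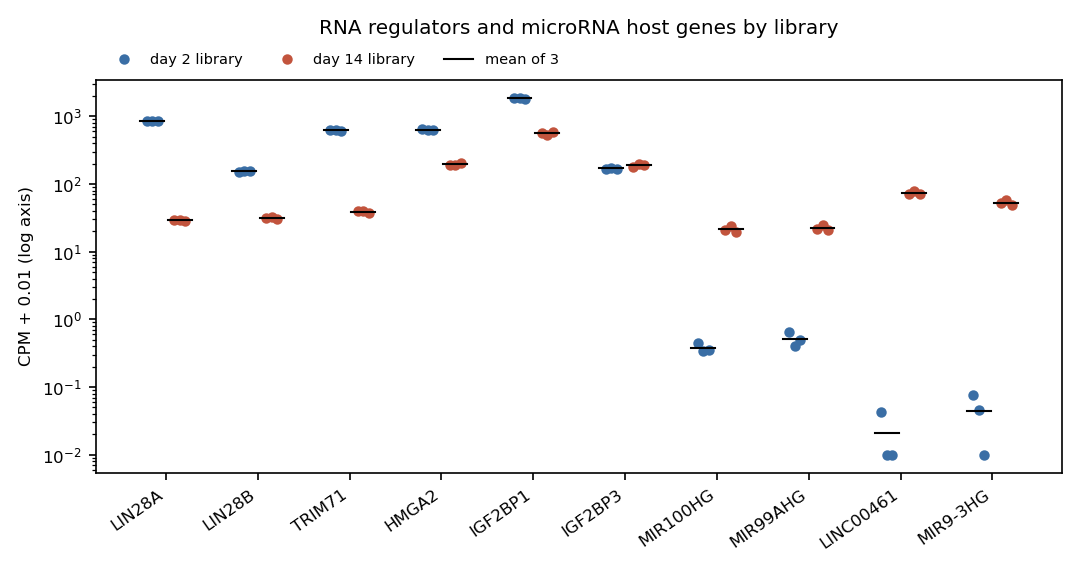
Level in each of the 3 day 2 libraries (blue) and 3 day 14 libraries (red), in CPM plus 0.01 on a log axis, for 6 RNA regulators and 4 microRNA host genes, with the mean of 3 as a bar. LIN28A, LIN28B, TRIM71, HMGA2 and IGF2BP1 were lower in every day 14 library, IGF2BP3 differed little, and the 4 hosts were higher in every day 14 library.

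The early neural progenitor markers SOX1, SOX2, PAX6, HES5 and SOX21 were present in all day 2 libraries, as the label says, and 4 of these 5 were lower on day 14. Of 14 progenitor genes 10 fell and 2 rose (median log2 change -0.75). HES5, a Notch-induced repressor of neurogenesis, stood at 265, 263 and 241 CPM on day 2 and 7.19, 8.29 and 8.24 CPM on day 14 (log2 change -5.02, SE 0.16, adjusted p = 4.9e-24). PAX6 fell from 518 ± 2.2 to 78 ± 2.7 CPM, SOX1 from 123 ± 2.1 to 22.1 ± 1.8 CPM and SOX3 from 265 ± 16 to 47 ± 2 CPM. SOX2, present in most neural progenitors, stood at 375, 384 and 375 CPM on day 2 and 267, 266 and 269 CPM on day 14 (log2 change -0.5, SE 0.07, adjusted p = 6.5e-08). SOX21 did not pass the test, with 56.9 CPM on day 2 and 58.8 on day 14. In bulk RNA, fewer cells of a type and less RNA per cell cannot be told apart, here and in every group that follows.

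PRTG was among both the 15 steepest falls and the 10 largest losses in CPM of coding genes. Protogenin, a receptor of the early neural tube, stood at 3531, 3342 and 3424 CPM on day 2 and 65.4, 78.2 and 63.6 CPM on day 14 (log2 change -5.64, SE 0.12, adjusted p = 1e-28). RELN, the secreted guidance protein reelin, fell from 1354 ± 28 to 45.6 ± 7.6 CPM (log2 change -4.89, SE 0.13, adjusted p = 1.7e-26). NID2, a basement membrane nidogen, fell from 473 ± 4.5 to 4.87 ± 0.2 CPM, and SLC2A1, which encodes the main glucose transporter of growing cells, fell from 1075 ± 29 to 93.3 ± 2.9 CPM. HES3, another HES repressor, had 14.3 CPM on day 2 and a single count over the 3 day 14 libraries (1714-fold lower with a 95% counting interval of 307 to 67736, adjusted p = 1e-24). ZIC2, TEK, CLDN2, BCO1, KCNE5, CA4, KLHL14, TRABD2A, TRPM3 and KEL complete the 15 steepest falls of coding genes with at least 10 CPM on day 2, together with HES5 and CDX2. The smallest of the 15, in KEL, was a log2 change of -4.99. KCNE5, NID2, CLDN2 and TRABD2A overlap other coding genes, so part of their counts is uncertain. AL139246.5, a non-coding transcript that overlaps HES5, fell by 3.84 and HAGLR, which overlaps HOXD1 and HOXD3, by 2.23 on the log2 scale. Without a known strand setting, reads of such pairs cannot be told apart.

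Remnants of the tail bud state were low on day 2 and lower on day 14. Of 11 tested neuromesodermal and tail bud genes 7 fell and 1 rose (median -2.83, or -2.73 with genes at 0 counts set to their bound). CDX2, a caudal homeobox factor that turns on trunk HOX genes, fell from 12.5 ± 0.83 to 0.0917 ± 0.038 CPM (log2 change -7.03, SE 0.21, adjusted p = 3.1e-27). CDX1 had 2.47 CPM on day 2 and no count on day 14 (at least 98.7-fold lower, adjusted p = 4.5e-12). NKX1-2 fell from 7.94 ± 0.58 to 0.342 ± 0.14 CPM, and TBXT had 0.166 CPM on day 2 and no count on day 14, a fall that was not called with TPM values (adjusted p = 0.21). WNT3A moved the other way, from 0.485 ± 0.1 to 2.76 ± 0.79 CPM (log2 change 2.49, SE 0.51, adjusted p = 5.1e-05). Of 7 tested pluripotency genes 5 fell and none rose. POU5F1 gave 1.66, 1.59 and 1.63 CPM on day 2 and 0.0503, 0 and 0.0252 CPM on day 14, and NANOG did not pass the filter on low counts. POU5F1 has pseudogenes that can share its reads.

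Signalling readouts split by pathway. Of 11 Hedgehog feedback genes and targets 9 fell (median -1.08) although SAG was given throughout. GLI1, a direct readout of the pathway, stood at 74.9, 70.5 and 72.5 CPM on day 2 and 17.4, 15.1 and 18.5 CPM on day 14 (log2 change -2.1, SE 0.1, adjusted p = 3e-20). PTCH1, the receptor and feedback inhibitor, fell from 545 ± 8.8 to 364 ± 8.8 CPM, HHIP, which binds the ligand, from 40.3 ± 0.87 to 6.36 ± 0.72 CPM and GAS1, a co-receptor, from 47.5 ± 0.58 to 4.53 ± 0.18 CPM. The 3 GLI factors and 3 co-receptors (GAS1, CDON, BOC) all fell, and SUFU did not pass the test. The BOC call was lost with TPM values (adjusted p = 0.051). The ligand itself rose, as given with the floor plate below.

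Retinoid genes exchanged members. CRABP2, which carries RA to its receptors, fell from 693 ± 19 to 68.6 ± 2.9 CPM, while CRABP1 rose from 28.5 ± 0.49 to 128 ± 1.3 CPM. RARB, a direct RA target, fell from 95.5 ± 1.8 to 27.3 ± 1.6 CPM and RARA rose from 43.9 ± 1.3 to 109 ± 6.8 CPM. CYP26A1, an RA-degrading enzyme, fell by 1.71 and DHRS3, which turns retinal back to retinol, rose by 2.0 on the log2 scale. The fall of CYP26A1 depended on the day taken: it stood at 13.2 CPM on day 2 and at 19.8, 5.55, 11.8, 4.02 and 15.9 CPM on days 11 to 15, lowest on days 12 and 14 and above its day 2 mean on days 11 and 15. ALDH1A2, the enzyme that makes RA in somites and in some motor neurons, had 1 count over the 3 day 2 libraries and 9.65, 13.2 and 7.74 CPM on day 14 (860.0-fold higher with a 95% counting interval of 154 to 33997, adjusted p = 1.2e-13), with the reservation that its annotated span overlaps AQP9 and LIPC. In all 8 of the 14 tested genes of this list rose and 6 fell.

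FGF feedback genes rose in 9 of 12 cases and fell in 3 (median 1.37). ETV5 rose from 3.63 ± 0.54 to 27.2 ± 2.9 CPM, SPRED3 from 2.65 ± 0.56 to 30.7 ± 1.2 CPM and IL17RD from 12.9 ± 0.9 to 81.9 ± 2.7 CPM. Their day 0 means were 146, 13 and 719 CPM. On day 14 ETV5 and IL17RD were thus below their day 0 level and SPRED3 above it. DUSP6, an ERK phosphatase that is often taken as the pathway's readout, went the other way (117, 119 and 109.5 CPM on day 2 and 34, 31.6 and 36.3 CPM on day 14, log2 change -1.76, SE 0.06, adjusted p = 3.3e-25). BMP readouts rose in 7 of 10 cases, led by SMAD9 (2.71 to 19.3 CPM) and ID3 (68.2 to 317 CPM), and ID4 fell by 0.53 on the log2 scale. Of 14 Wnt feedback genes 5 rose and 8 fell. LEF1 and the secreted inhibitors SFRP1 and SFRP2 fell by 2.98, 2.13 and 2.7 on the log2 scale, AXIN2 by 0.87, and the inhibitor DKK3 rose by 3.03.

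In the Notch pathway 10 of 19 genes fell and 6 rose (median -0.90), and the members changed partners. The ligands DLL1 and DLL4 fell from 226 ± 0.8 to 42.5 ± 6.8 CPM and from 54.7 ± 3.5 to 8.27 ± 0.99 CPM. JAG1 fell from 337 ± 9.3 to 113 ± 4.6 CPM and JAG2 rose from 2.84 ± 0.65 to 12.3 ± 2.3 CPM. HES1, the repressor expressed in floor plate and other organising regions, rose as HES5 fell: it stood at 6.4, 5.54 and 4.82 CPM on day 2 and 101, 95.1 and 91.5 CPM on day 14 (log2 change 4.1, SE 0.16, adjusted p = 7.3e-22). HEY1 rose from 0.806 ± 0.24 to 11.2 ± 1.8 CPM. NOTCH1 and NOTCH3 rose by 0.62 and 0.82 and NOTCH2 fell by 0.9 on the log2 scale.

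All 11 tested floor plate and p3 genes, of the ventral midline, rose (median 3.97, or 4.16 with low-count genes at their bound). SHH, the secreted morphogen of the floor plate, stood at 0.994, 0.978 and 0.304 CPM on day 2 and 155, 185 and 138 CPM on day 14 (log2 change 7.68, SE 0.36, adjusted p = 1.2e-18). FOXA2, the forkhead factor that specifies floor plate, stood at 0.464, 0.326 and 0.152 CPM on day 2 and 29.9, 33.7 and 27.8 CPM on day 14 (log2 change 6.55, SE 0.35, adjusted p = 6.2e-18). NTN1, the axon attractant netrin 1, rose from 45.5 ± 0.63 to 964 ± 100.0 CPM (log2 change 4.4, SE 0.15, adjusted p = 7.7e-23). In these 3 genes every day 14 library was above every day 2 library. The long non-coding RNA LINC00261 (chr20:22547671-22578642), next to FOXA2 (chr20:22581005-22585455) on chromosome 20, had 2 counts over the 3 day 2 libraries and 58.3, 72 and 52.7 CPM on day 14 (2569-fold higher with a 95% counting interval of 711 to 21216, adjusted p = 3.9e-12). NKX2-2, the p3 factor, rose from 0.0689 ± 0.055 to 4.35 ± 0.55 CPM.

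Most factors of the progenitors next to the floor plate rose, and most of those from the intermediate cord fell. OLIG2, which marks pMN progenitors, stood at 12.1, 11.4 and 10.4 CPM on day 2 and 31.9, 37.9 and 31.2 CPM on day 14 (log2 change 1.57, SE 0.13, adjusted p = 4.6e-13), NKX6-1 rose from 63.6 ± 1.3 to 148 ± 13 CPM and OLIG1 from 5.79 ± 1 to 61.9 ± 5.9 CPM. Of 6 ventral progenitor factors 5 rose, and NKX6-2 fell by 1.57 on the log2 scale. Of 8 factors of the intermediate cord 5 fell and 1 rose (median -2.19). DBX2 fell from 5.99 ± 0.48 to 0.192 ± 0.064 CPM and IRX3, which bounds the motor neuron domain dorsally, fell from 94.7 ± 0.89 to 14.5 ± 1.2 CPM. Dorsal, roof plate and crest genes were low on both days: summed over the list their means gave 16.3 CPM on day 2 and 19.4 on day 14. PAX3 had 2.91 CPM on day 2 and no count on day 14, and OLIG3 rose from 0.972 ± 0.059 to 6.16 ± 1.2 CPM. SOX10, a crest and oligodendrocyte marker, had 0 and 0.0416 CPM.

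HOX genes record position along the body. Groups 1 to 4, of hindbrain and neck, were divided with 6 higher and 6 lower of 12 (median -0.08, and 0.08 with TPM values). HOXD1 fell from 15.5 ± 0.39 to 0.627 ± 0.095 CPM, and HOXB1 fell by 1.01 on the log2 scale. Of 11 genes of groups 5 to 8, from the brachial to the upper thoracic level, 10 rose and none fell (median 1.99). HOXC6, of brachial segments, stood at 2.82, 2.1 and 3 CPM on day 2 and 105, 105 and 102 CPM on day 14 (log2 change 5.3, SE 0.14, adjusted p = 9e-28), and HOXC8 at 0.365, 0.217 and 0.19 CPM on day 2 and 42, 39.4 and 44.2 CPM on day 14 (log2 change 7.3, SE 0.28, adjusted p = 3.3e-22). Of 16 genes of groups 9 to 13 only 4 passed the filter, and these 4 rose. HOXB9 rose from 324 ± 4.3 to 865 ± 63 CPM, and HOXC9, of thoracic segments, rose from 0.126 ± 0.098 to 2.83 ± 0.24 CPM. No gene of groups 10 to 13 passed the filter on low counts. Day 2 was a low point for HOXC6, HOXC8, HOXB9 and HOXC9 relative to day 0. Their day 0 means were 13.8, 20.3, 846 and 0.967 CPM, so HOXB9 on day 14 stood near its day 0 level.

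Motor neuron genes rose, most of them from near 0. Of 12 motor neuron homeodomain and column factors 11 rose and 1 fell (median 4.01). ISL1, a LIM factor of motor neurons, had 2 counts over the 3 day 2 libraries and 5.35, 7.45 and 4.84 CPM on day 14 (248-fold higher with a 95% counting interval of 68.3 to 2049, adjusted p = 2.4e-16). MNX1 (HB9) rose from 0.271 ± 0.11 to 7.43 ± 0.94 CPM, LHX3 from 0.198 ± 0.11 to 8.07 ± 0.82 CPM and LHX4 from 0.58 ± 0.049 to 30.3 ± 5 CPM. ESRRG, an orphan nuclear receptor, rose from 1.06 ± 0.3 to 20.9 ± 5.6 CPM. MECOM fell by 1.24 on the log2 scale.

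All 7 cholinergic genes rose (median 4.97). SLC5A7, which takes choline back into the terminal, had no count on day 2 and 38.2, 46.8 and 39.8 CPM on day 14 (at least 1167-fold higher, adjusted p = 1.3e-22). CHAT, which makes acetylcholine, had 1 count on day 2 and 7.16, 8.49 and 6.88 CPM on day 14 (632-fold higher with a 95% counting interval of 113 to 25005, adjusted p = 2.5e-21). SLC18A3, the vesicular transporter, rose from 1.73 ± 0.44 to 47.6 ± 0.65 CPM and PRPH, the peripherin filament of motor neurons, from 0.53 ± 0.11 to 23.7 ± 2.3 CPM. A few other neuron types left traces. Of 13 tested ventral interneuron factors 5 rose and 3 fell (median 0.41). Their means summed to 116.1 CPM on day 2 and 100.1 on day 14. SOX14 gave 2.66, 4.12 and 2.29 CPM on day 14 and no count on day 2, and EN1, of V1 interneurons, gave 1.26, 1.41 and 1.23 CPM and no count. SST, the peptide somatostatin, rose from 0.0462 ± 0.04 to 21.5 ± 1.4 CPM (log2 change 8.71, SE 0.35, adjusted p = 4.4e-22). Of 7 tested dorsal interneuron factors 1 rose and 2 fell. GAD1, GAD2 and SLC32A1, which mark inhibitory neurons, fell from levels of 1.02, 0.442 and 0.26 CPM, a call that GAD1 lost when replicate 2 or 3 was left out (adjusted p = 0.077 and 0.16). SLC32A1 lost it without replicate 1 (adjusted p = 0.055) and with TPM values (adjusted p = 0.33).

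Proneural factors, which start neurogenesis in progenitors, did not move as 1 group: 6 of 14 rose and 6 fell (median 0.18). NEUROG2, the proneural factor of motor neuron progenitors, stood at 148, 146 and 150.1 CPM on day 2 and 27.6, 31.7 and 28.8 CPM on day 14 (log2 change -2.33, SE 0.11, adjusted p = 2.9e-19). NEUROD4, expressed after cell cycle exit, rose from 36.8 ± 1.1 to 59.2 ± 6.5 CPM. Of 20 factors that differ between early- and late-born neurons 14 rose and 4 fell. ONECUT2, of early-born neurons, fell by 0.52, a call lost without replicate 1 or 3 (adjusted p = 0.12 and 0.18), and its day 12 mean, 74.7 CPM, was above the 67.4 CPM of day 2. ZFHX3 fell by 0.74, and POU2F2, NFIA and NFIB rose by 5.63, 6.95 and 6.58 on the log2 scale. BCL11A had 2 counts on day 2 and 23.1, 21.4 and 22 CPM on day 14 (933-fold higher with a 95% counting interval of 258 to 7712, adjusted p = 5.7e-27).

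Genes of neuron structure rose in 20 of 24 cases and fell in 1 (median 2.10). NEFL and NEFM, the neurofilament light and medium chains, stood at 42.6, 44.1 and 42.2 CPM on day 2 and 1364, 1554 and 1311 CPM on day 14 and at 8.42, 8.98 and 9.14 CPM on day 2 and 1146, 1424 and 1073 CPM on day 14. Their tests gave log2 change 5.04, SE 0.13, adjusted p = 3.8e-26 and log2 change 7.1, SE 0.25, adjusted p = 4.2e-22, respectively. STMN2, a microtubule regulator of growing axons, rose from 17.1 ± 0.1 to 613 ± 86 CPM, GAP43, of growth cones, from 3.37 ± 0.26 to 147 ± 12 CPM, and MAPT, the microtubule protein tau, from 4.11 ± 0.8 to 123 ± 13 CPM. TUBA1A, an alpha-tubulin, rose from 1058 ± 20 to 5343 ± 110.0 CPM, the largest gain in CPM of coding genes outside the mitochondrial genome, a measure that also grows with transcript length. It overlaps TUBA1C and resembles other alpha-tubulins closely, so its share of ambiguous reads is uncertain. NEFH, the heavy neurofilament chain of mature axons, fell by 0.23 on the log2 scale (15.7 to 13.3 CPM), a call lost without replicate 2 (adjusted p = 0.55). DCX rose by 2.6 on the log2 scale, while MAP1B, DPYSL3 and DCLK1 did not pass the test. In a fit of the 6 libraries alone MAP1B and DPYSL3 were called lower (adjusted p = 0.0049 and 0.0012). TUBB3 and ELAVL3, pan-neuronal genes, were already at 422 and 24.5 CPM on day 2.

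Of 26 synaptic vesicle and active zone genes 25 rose and 1 fell (median 1.81). RAB3A, a vesicle GTPase, rose from 1.39 ± 0.19 to 55.1 ± 4.8 CPM (log2 change 5.31, SE 0.21, adjusted p = 8.6e-22), SYT4 from 1.68 ± 0.32 to 49.2 ± 11 CPM, SYP from 5.82 ± 0.64 to 46.2 ± 5.6 CPM and SNAP25, of the fusion complex, from 6.09 ± 0.42 to 42.6 ± 5.2 CPM. RIMS2 was the member that fell (42.6 to 21.5 CPM). Of 33 tested receptor subunits 26 rose and 4 fell (median 2.65), and 2 fell without day 2 replicate 1 and 1 with TPM values. GRIA2, the AMPA receptor subunit that limits calcium entry, had 1 count on day 2 and 15.8, 19.5 and 11.8 CPM on day 14 (1322-fold higher with a 95% counting interval of 237 to 52259, adjusted p = 2.9e-19). GLRA2, a glycine receptor subunit of immature neurons, rose from 0.0936 ± 0.034 to 28.9 ± 2.4 CPM, and CHRNA4 from 0.0842 ± 0.026 to 20.9 ± 3.2 CPM. GRIK3 fell from 126 ± 3.2 to 40.7 ± 8.3 CPM. TACR1, the receptor for substance P, had 2 counts on day 2 and 105, 127 and 97.8 CPM on day 14 (4633-fold higher with a 95% counting interval of 1282 to 38262, adjusted p = 8.2e-22).

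Ion channels rose more often than they fell. Of 37 tested sodium and calcium channel genes 26 rose and 7 fell (median 1.66), and of 73 potassium channel family genes 47 rose and 16 fell (median 0.96). SCN3A, the sodium channel of the embryonic brain, rose from 0.261 ± 0.069 to 50.6 ± 9 CPM (log2 change 7.58, SE 0.31, adjusted p = 7e-21), and SCN2A rose from 0.374 ± 0.14 to 12.3 ± 1.1 CPM. SCN8A, which carries most sodium current in mature axons, fell from 40 ± 0.82 to 22.6 ± 1.3 CPM. With TPM values the SCN8A call was lost (adjusted p = 0.11). Of 52 tested clustered protocadherins, which share their last exons so that reads are hard to assign, 37 rose and 3 fell. Of 31 guidance genes 20 rose and 9 fell. DCC, the netrin receptor, rose from 4.4 ± 0.28 to 89.7 ± 9.9 CPM, SLIT1 from 41 ± 1.4 to 796 ± 90 CPM and SLIT3 from 3 ± 0.13 to 256 ± 9.1 CPM, while PLXNA2 fell from 574 ± 12 to 99.2 ± 5.5 CPM. Of 16 neuronal RNA-binding and splicing factors 13 rose and 2 fell (median 1.88). CELF4 rose from 1.51 ± 0.083 to 38.2 ± 3 CPM, and PTBP1, the repressor of neuronal exons, fell from 869.5 ± 14 to 352 ± 29 CPM, with PTBP2 not passing the test (58.7 to 65 CPM).

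**Figure D3:**
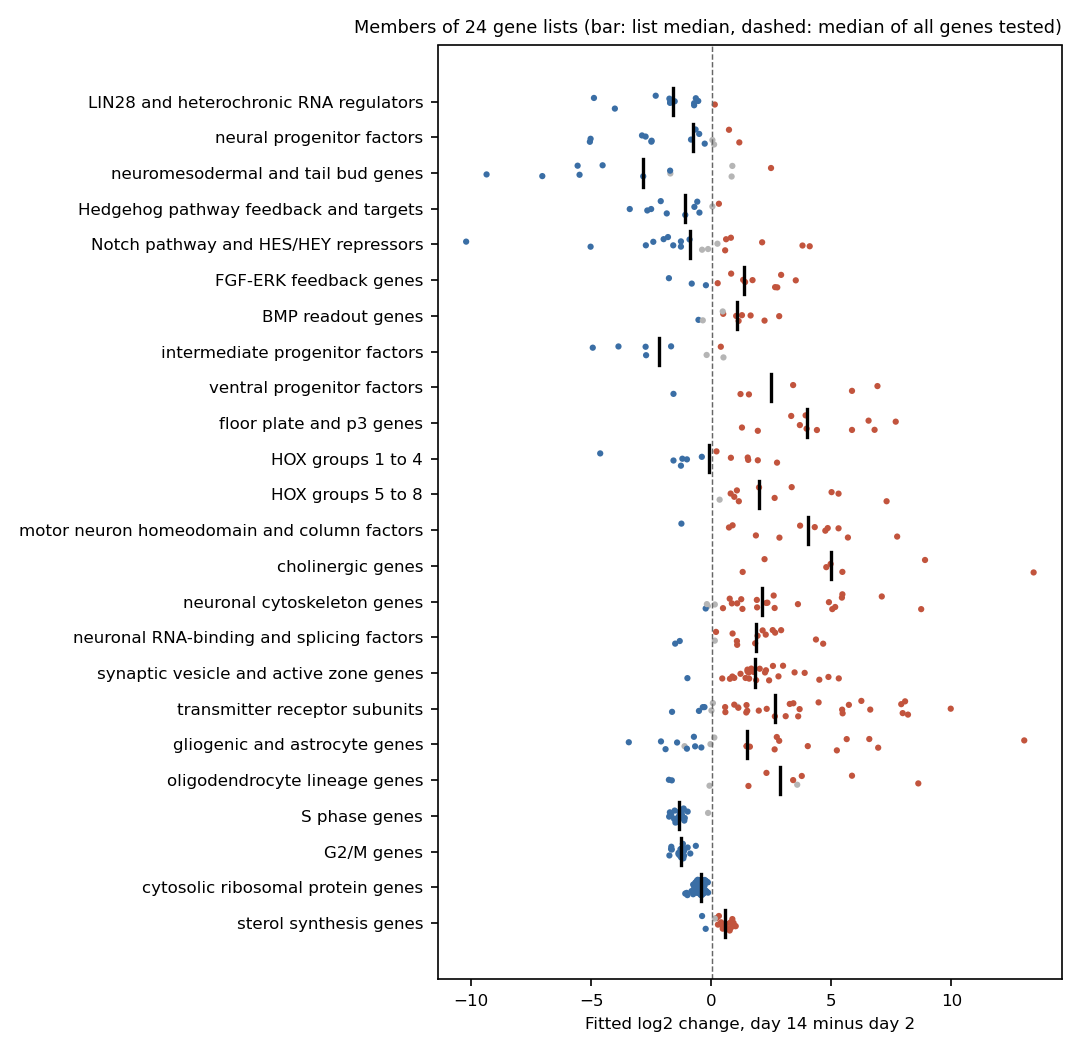
Fitted log2 change, day 14 minus day 2, of each tested member of 24 gene lists. Red members were called higher, blue lower and grey not called, the black bar is the list median and the dashed line the median of all genes tested (0.05). The LIN28 list, progenitor, tail bud and cell cycle lists lie left of the line, and the floor plate, motor neuron, cholinergic and synaptic lists right of it.

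Early glial regulators rose while GFAP and AQP4, of mature astrocytes, stayed under 1 CPM. NFIA, a nuclear factor that starts gliogenesis, stood at 0.398, 0.435 and 0.152 CPM on day 2 and 43, 37 and 44.4 CPM on day 14 (log2 change 6.95, SE 0.28, adjusted p = 6.9e-22), and NFIB at 0.298, 0.435 and 0.19 CPM on day 2 and 29.8, 27.4 and 32.4 CPM on day 14 (log2 change 6.58, SE 0.25, adjusted p = 3e-23). SOX9 rose from 28.8 ± 0.37 to 80 ± 3.1 CPM and SLC1A3, the glutamate transporter of radial glia and astrocytes, from 30.1 ± 1.1 to 187 ± 20 CPM. MLC1, a membrane protein of astrocytes, had no count on day 2 and 30.8, 35.8 and 28.5 CPM on day 14 (at least 889.5-fold higher, adjusted p = 9.6e-21). S100B rose from 0.0609 ± 0.075 to 3.15 ± 0.39 CPM. GFAP had 0.168 and 0.0751 CPM and did not pass the test, and AQP4 fell from 0.726 to 0.36 CPM, a call lost without replicate 1 or 2 (adjusted p = 0.15 and 0.29), while GFAP was called lower without replicate 2 (adjusted p = 0.044). PTN and PTPRZ1, a growth factor and its receptor on radial glia, fell from 124 ± 0.95 to 11.5 ± 3.4 CPM and from 469 ± 9.2 to 110.0 ± 14 CPM. In all 12 of 23 tested gliogenic and astrocyte genes rose and 8 fell (median 1.47). Of 10 tested oligodendrocyte lineage genes 6 rose and 2 fell. PDGFRA, the marker of oligodendrocyte precursors, fell from 2.41 ± 0.71 to 0.769 ± 0.2 CPM, and GPR17 gave 1.71, 1.29 and 1.46 CPM on day 14 and no count on day 2.

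Nearly all cell division genes fell. Of 22 G2/M genes all 22 fell, by 0.64 in CDK1 to 1.74 in CENPF on the log2 scale (median -1.25), and of 22 S phase genes 21 fell and none rose (median -1.32). MKI67, present in dividing cells, stood at 1213, 1199.8 and 1185 CPM on day 2 and 391, 359.8 and 401 CPM on day 14 (log2 change -1.64, SE 0.07, adjusted p = 6.3e-23), and MCM2, of the replication helicase, at 595, 599.6 and 584 CPM on day 2 and 183, 162 and 184 CPM on day 14 (log2 change -1.75, SE 0.07, adjusted p = 2.3e-24). CDK1 fell least of the G2/M list (from 97.9 ± 3.4 to 63 ± 2 CPM), and CCNE2 did not pass the test. Of 63 tested clustered histone genes 40 fell and 6 rose (median -1.47), in libraries made from polyadenylated RNA, which replication-dependent histone messages mostly lack. Inhibitors of cyclin-dependent kinases rose: CDKN1A (p21) from 38.6 ± 2.4 to 217 ± 31 CPM, CDKN1C (p57) from 12.4 ± 0.81 to 61.1 ± 1.7 CPM, CDKN2B (p15) from 0.191 ± 0.086 to 17.9 ± 7.2 CPM and CDKN2A (p16 and p14ARF) from 0.176 ± 0.091 to 8.92 ± 1.4 CPM. CDKN2C fell by 0.52, a call lost with TPM values (adjusted p = 0.083), and the D cyclins CCND1 and CCND2 fell by 1.11 and 0.77 on the log2 scale.

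Promoters were compared because the division genes moved together. RefSeq promoters (GRCh38.p14) run from 250 bases before to 50 after each gene's start, and 12458 tested genes matched. The cell cycle homology region, TTTGAA or TTCGAA on either strand, was found in 11 of the 16 G2/M promoters (68.8%), against 16.6% of all 27305 promoters. CCAAT on either strand was in 14 of the 16 (87.5%), against 35.7%, and also in 13 of 18 S phase promoters (72.2%) and in 12 of 15 promoters of sterol synthesis genes (80%), a list of which most members rose. The E2F motif, TTTCCCGC or TTTGGCGC on either strand, was in 11 of 18 S phase promoters (61.1%), against 2.31% of all, and in 1 of the 16 G2/M promoters. For the cell cycle homology region, CCAAT and E2F in turn, the shares were 11.6%, 36.1% and 3.52% among the 12458 tested genes. They were 11.3%, 36.2% and 3.68% among 326 promoters of genes at least 4-fold lower on day 14. A match is a description of these letters and not evidence of binding. The promoters of CCNB2, which encodes cyclin B2, and PLK1, a mitotic kinase, are shown because each has the 2 motifs in the usual order, CCAAT upstream and TTTGAA close to the start, at base -29 for both. Capitals mark CCAAT and the cell cycle homology region.
CCNB2 promoter (chr15:59104896-59105195, plus strand): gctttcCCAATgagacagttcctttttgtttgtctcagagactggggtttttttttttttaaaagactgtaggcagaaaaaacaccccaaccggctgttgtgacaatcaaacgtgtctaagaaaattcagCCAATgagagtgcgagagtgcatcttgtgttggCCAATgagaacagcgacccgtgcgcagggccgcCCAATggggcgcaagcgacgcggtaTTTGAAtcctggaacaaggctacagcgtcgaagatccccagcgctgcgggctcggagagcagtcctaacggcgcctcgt
PLK1 promoter (chr16:23678639-23678938, plus strand): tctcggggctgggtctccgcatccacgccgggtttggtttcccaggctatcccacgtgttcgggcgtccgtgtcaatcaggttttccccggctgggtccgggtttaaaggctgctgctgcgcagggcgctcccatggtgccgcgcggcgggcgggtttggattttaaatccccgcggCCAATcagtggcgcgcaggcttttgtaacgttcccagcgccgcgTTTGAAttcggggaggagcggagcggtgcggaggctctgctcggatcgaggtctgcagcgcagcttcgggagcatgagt
CCNB2 fell from 191 ± 4.8 to 78.7 ± 5.6 CPM (log2 change -1.28, SE 0.06, adjusted p = 6.7e-21) and PLK1 fell from 224 ± 6.8 to 93.9 ± 9.8 CPM (log2 change -1.25, SE 0.07, adjusted p = 2e-19). For these 2 genes no day 14 library reached a day 2 library.

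All 77 cytosolic ribosomal protein genes fell (median -0.43), as did 28 of 36 tested proteasome subunits (median -0.22), with 2 higher. With TPM values 65 of the 77 ribosomal protein genes fell (median -0.28) and 16 of 35 proteasome genes did (median -0.08). RPLP0 fell from 2554 ± 55 to 1290.5 ± 75 CPM. Of 23 tested glycolysis genes 14 fell (9 with TPM values) and 6 rose (median -0.27), and of 20 sterol synthesis genes 17 rose and 2 fell (median 0.59), led by SC5D and MVD at 1.02 and 0.99. Nuclear genes of oxidative phosphorylation were divided (18 higher and 30 lower of 73, median -0.08), and with TPM values the division turned round (34 higher and 13 lower, median 0.10). Of 13 mitochondrially encoded genes 3 fell and none rose, and 2 of these 3, MT-ND2 and MT-ND3, lost the call without replicate 3 (adjusted p = 0.058 and 0.18). Without day 14 replicate 3 the list gave 2 higher and 1 lower. The mitochondrial share was 2.739% in 1 day 14 library against 3.866% and 3.958% in the other 2.

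In some gene families 1 member rose as another fell. These pairs were picked after their values were seen, so they illustrate and carry no count. EEF1A2, the translation elongation factor of neurons and muscle, rose from 0.422 ± 0.16 to 212 ± 8.8 CPM (log2 change 8.98, SE 0.14, adjusted p = 1e-36), as EEF1A1 fell from 13802 ± 340.0 to 11758 ± 680.0 CPM, a fall that was not called with TPM values (adjusted p = 0.31). TUBA1B fell from 3904 ± 80 to 1792 ± 99 CPM as TUBA1A rose. ENO1 fell from 1976 ± 30 to 812 ± 90 CPM and ENO2, the neuronal enolase, rose from 39.8 ± 0.49 to 147 ± 13 CPM. HK2 fell and HK1 rose, by 1.62 and 1.1 on the log2 scale, and SLC2A3, the neuronal glucose transporter, rose by 0.92 as SLC2A1 fell. SLC2A3 had stood at 1307 CPM on day 0, far above its 111 CPM on day 14. In the BAF chromatin remodelling complex ACTL6A fell by 0.9 on the log2 scale and its neuronal counterpart ACTL6B rose from 0.545 ± 0.046 to 15.2 ± 1.2 CPM.

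Genes of connective tissue rose and varied between the day 14 libraries. COL1A1, a fibrillar collagen, stood at 7.92, 7.75 and 6.98 CPM on day 2 and 581, 247 and 696 CPM on day 14 (log2 change 6.07, SE 0.48, adjusted p = 5.7e-13). COL3A1 gave 23.3, 12.6 and 45.2 CPM on day 14 against a mean of 0.911 CPM on day 2. Replicate 2 was the lowest in both genes, and the 3 day 14 libraries still lay above all day 2 libraries. Of 10579 genes with a day 14 mean of at least 10 CPM, the highest day 14 library was at least 2 times the lowest in 42, and replicate 2 was the lowest in 38 of these. Of 54 tested collagens, laminins and nidogens 29 rose and 14 fell, 9 with TPM values (median 1.00). Mesoderm and muscle markers summed to 6.0 to 6.9 CPM in the day 2 libraries and 8.5 to 22.3 in the day 14 libraries, with 5 of 9 tested higher and 2 lower, and MSGN1, MEOX2, MYOD1 and MYOG below the filter. The 5 higher became 2 without day 2 replicate 2 and with TPM values, and 3 without day 2 replicate 1, day 2 replicate 3 or day 14 replicate 1. FOXC2 rose from 0.0945 ± 0.11 to 7.38 ± 3.2 CPM. The part of non-neural cells in these changes was not tested. Endothelial TEK fell from 28.5 ± 0.94 to 0.46 ± 0.22 CPM and KDR rose from 0.314 ± 0.17 to 10.6 ± 1.3 CPM. SOX17 and GATA4, of endoderm, did not pass the filter. Of 8 tested endoderm and non-neural ectoderm markers 5 rose and 3 fell (median 1.12). With TPM values 3 of 6 rose and 3 fell (median 0.17). Their means summed to 112.7 CPM on day 2 and 207.9 on day 14. The mean of GATA6 was 0.0973 CPM on day 2 and 1.49 on day 14. Motile cilium genes rose in 13 of 14 cases (median 2.24), and FOXJ1, their master regulator, rose from 30 ± 0.41 to 109 ± 1.8 CPM.

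The steps lay at different times. For the 707 genes that rose at least 4-fold and the 166 that fell at least 4-fold, with at least 10 CPM on the higher day, the day was found from which the mean log2 CPM stayed past 50% of its way from day 2 to day 14. Among rising genes 19.9% had passed it by day 4, 60.7% by day 6 and 81.2% by day 8, and among falling genes 13.3%, 42.8% and 73.5%. On a log scale a rising gene passes this point before 50% of its change in CPM, and a falling gene after it. The shares therefore do not show which direction changed first. By list the steep members are few. The 12 neuronal cytoskeleton genes passed it at a median of day 5 (days 4 to 6) and the 10 synaptic genes at day 5 (days 4 to 7). The 4 motor neuron factors passed it at a median of day 5 (days 4 to 7), the 5 floor plate genes at day 8 (days 7 to 10) and the 6 gliogenic genes at day 9 (days 4 to 12), so the ranges overlap and no order was tested. MNX1, ISL1 and LHX3 are not among the 4 motor neuron factors, since they were under 10 CPM on days 2 and 14. Some rising genes were higher still on the way: ISL1 reached 12.6 CPM on day 8 against 5.88 on day 14, and MNX1 23.8 against 7.43. ONECUT2, called slightly lower, peaked at 310.2 CPM on day 7.

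**Figure D4:**
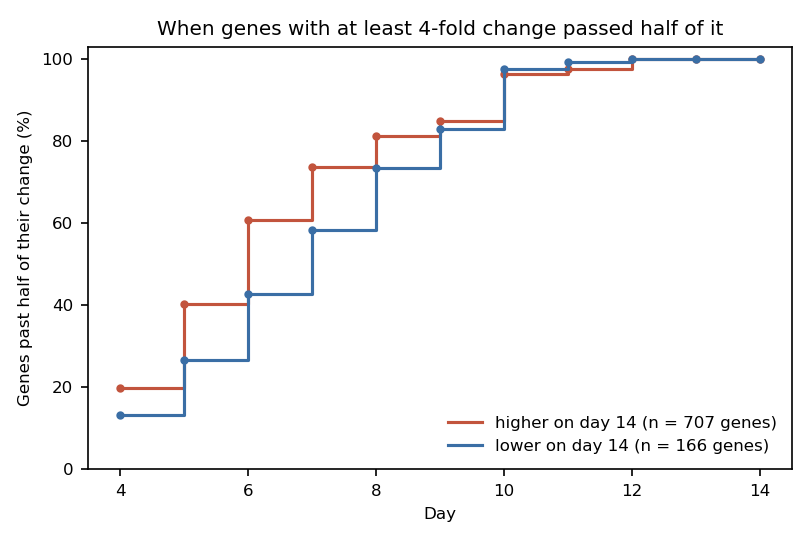
Cumulative share (%) of genes, by day, that had passed 50% of their log2 change between days 2 and 14 and stayed past it, for the 707 genes at least 4-fold higher and the 166 at least 4-fold lower on day 14. By day 6, 60.7% of the rising genes and 42.8% of the falling genes had passed it. The log scale places this point earlier in a rise than in a fall, so the 2 curves do not show which direction changed first.

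Part of these changes followed an opposite change between days 0 and 2. Of the 166 steep falls, 92 (55.4%) had a day 0 level at least 50% of the way, on the log2 scale, to the day 14 level, so their means rose between days 0 and 2 and were lower again on day 14. HES5 went from 0.0102 CPM on day 0 to 256 on day 2 and 7.91 on day 14, PAX6 from 0.215 to 518 and 78, and RELN from 0.45 to 1354 and 45.6, with its highest mean, 1839 CPM, on day 4. Of the 707 steep rises, 122 (17.3%) had a day 0 level at least 50% of the way to the day 14 level. STMN2 went from 249.9 CPM on day 0 to 17.1 on day 2 and 613 on day 14, and GAP43 from 51.1 to 3.37 and 147. LIN28A and PRTG did not share this shape: LIN28A fell from 2964 CPM on day 0 and PRTG stood at 1648 CPM on day 0. The levels of other days are means of 3 libraries and no test was made against day 0.

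**Figure D5:**
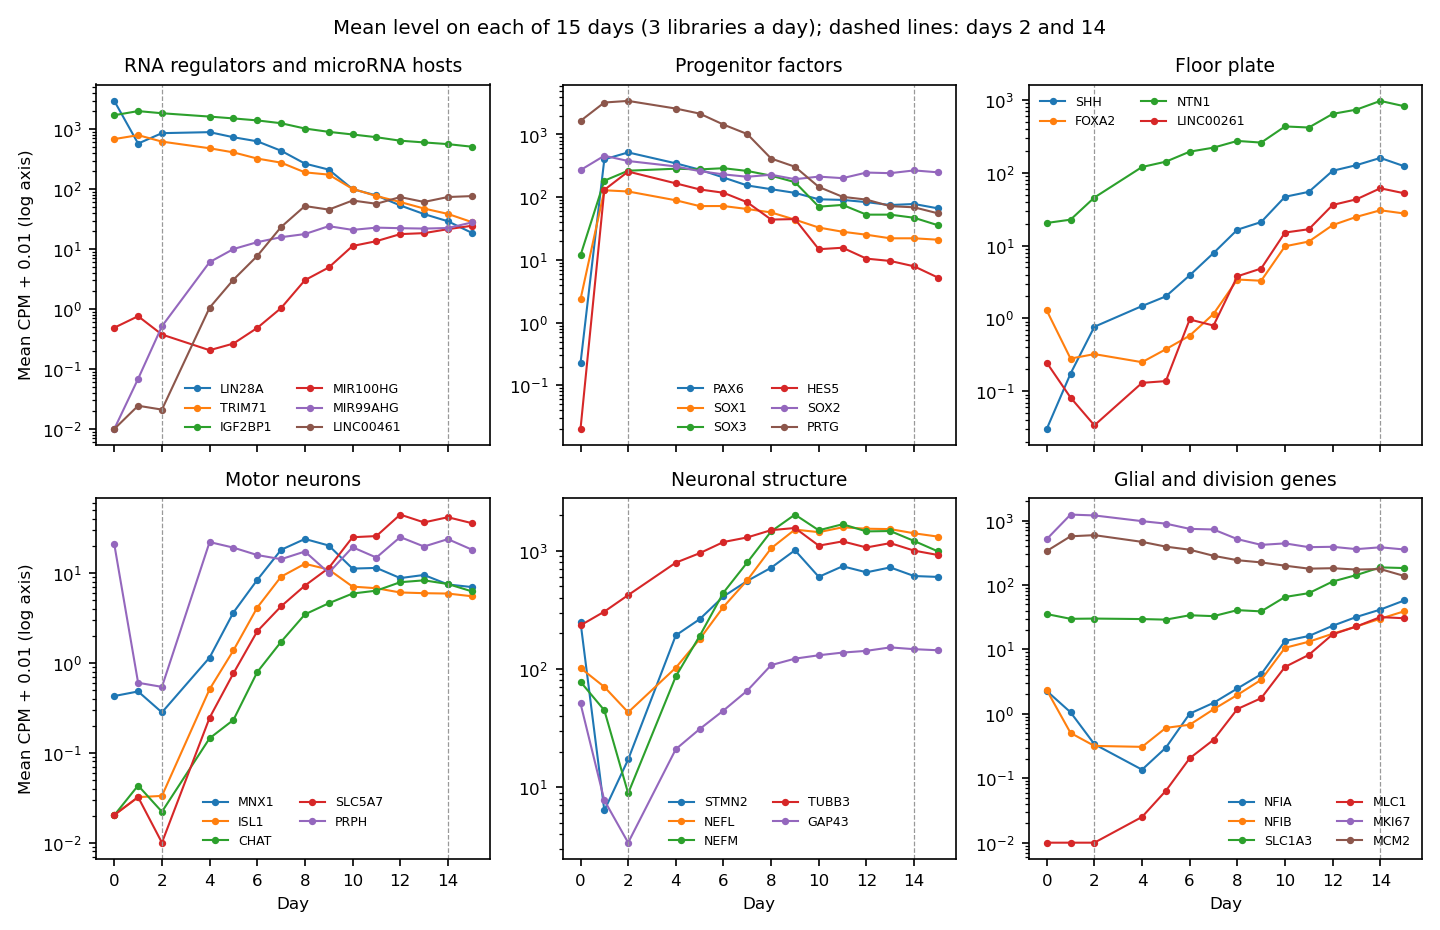
Mean CPM plus 0.01 (log axis) of genes from 6 groups on each of 15 days from day 0 to day 15, with 3 libraries a day. Dashed lines mark days 2 and 14. PAX6, SOX1 and HES5 peak on days 1 and 2, STMN2 and GAP43 have a low there, MNX1 and ISL1 peak around day 8, and the floor plate and glial genes are near their highest on day 14.

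Comparing the end points also hides changes in between. In all, 14 coding genes differed by less than 2-fold between days 2 and 14 and yet had a peak or trough at least 4-fold away from both. ROBO3, a receptor of axons before they cross the midline, went from 5.44 CPM on day 2 to 97.6 on day 4 and 10.7 on day 14. TIE1 peaked at 10.1 CPM on day 7 and ANXA3 at 14 on day 5. FREM1, a matrix protein, went from 92.2 to 5.06 CPM on day 9 and back to 51.5, and DLK1 and TMCC3 had their lows on the same day, at 1.65 and 3.13 CPM.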

How the data were processed

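Polyadenylated RNA of H9-derived cells was sequenced with 3 libraries on each of 15 days, per the labels, and days 2 and 14 were compared. Per the submitters' processing notes, the authors used bcl2fastq 2.20.0 and RSEM on GRCh38. The strand setting, aligner and annotation were not given in the sources used here. The deposited expected counts are the authors' RSEM estimates, in which ambiguous reads are shared among genes, and 92.5% of values are whole. They were rounded here. The deposited TPM values, scaled by the authors for length and library total, served as an alternative. Gene types and positions are from GENCODE 29, which holds 57895 of the 58233 identifiers, and the other 338 hold 0.0276% of counts.

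Counts of all 45 libraries were fitted together in edgeR 4.0.16 (R 4.3.3) with day as a factor, TMM factors between 0.9247 and 1.061, the default filter by day, a robust quasi-likelihood fit and 30 residual degrees of freedom. Only the contrast of day 14 minus day 2 was read, with Benjamini-Hochberg adjustment over 19436 genes. An exact permutation test of 3 against 3 libraries cannot go below 0.1. The SE is the log2 change divided by the square root of F. For a gene with no count on 1 day a lower bound is given against 3 counts over the group, and for 1 to 3 counts the ratio with its 95% exact interval, which covers counting error only. The fit was tested on simulated counts. Alternatives were DESeq2 1.42.0, limma 3.58.1 on log2(TPM + 1), other size factors, no filter, a replicate block, 6 libraries only, other days and leaving out replicates.

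Replicates of a day were not copies of each other: chi-square over its degrees of freedom was 2.06 to 2.94 on day 2 and 9.29 to 22.49 on day 14. Deviations of same-numbered libraries from their day means had correlations of 0.059, -0.019 and 0.002, so the numbers do not pair the days. The comparison and the 62 gene lists were chosen with earlier results of these data known. No set test was made: lists are described by counts of calls and medians. Genes were chosen for naming by a rule giving 289 genes (the 15 steepest rises and falls of coding genes with at least 10 CPM, the 10 largest CPM gains and losses, up to 4 members of each list and those against its trend, 5 non-coding genes each way, 6 genes with peaks or troughs in between, and a panel of 22 markers). A further 78 genes were chosen from the lists after their values were seen. Some of these genes are not reported here. Genes that tell sex were left out.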

Additional observations from a re-analysis of the deposited data

How the results depend on the processing

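The counts of genes higher, lower, at least 2-fold higher and at least 2-fold lower stayed within 1.5 times of 7344, 6490, 3843 and 2004 under every alternative run but 2. Both concern the genes at least 2-fold lower, which numbered 879 with limma on log2(TPM + 1), which changes unit, filter, test and pseudocount together, and 1292 when the test itself asked for a change above 2-fold (edgeR's glmTreat). Leaving out 1 replicate number gave 6914 to 6996 higher and 5881 to 5961 lower genes, with 3754 to 3819 and 1915 to 1930 at 2-fold, and leaving out single libraries gave 7123 to 7250 and 6130 to 6205, with 3823 to 3891 and 1953 to 1988. With the replicate number as a block the counts were 7360, 6494, 3843 and 2004, and the block changed no call among the genes chosen for naming. DESeq2 called 7436 and 6437, and limma on TPM values 7663 and 4519, with a median log2 change over all genes of 0.14 in place of 0.05. For the 367 genes chosen for naming, 5493 values under alternatives gave 5426 with the same direction and call, 59 that lost the call, 8 that gained it and 0 that reversed. The losses lie in 15 genes and are noted beside those whose values are given. Day 14 stands for the late days only in part, since 985 genes were called between days 14 and 12.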

Other observations

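Further gene groups moved between days 2 and 14. Immediate early genes, which cells induce within minutes of a stimulus, rose in 12 of 14 cases and fell in 1 (median log2 change 1.23). FOS rose from 0.54 ± 0.17 to 6.81 ± 1 CPM, EGR1 from 4.4 ± 0.91 to 35.2 ± 6.6 CPM and JUN from 13.5 ± 0.59 to 75.2 ± 2.5 CPM, while NPAS4, a gene induced by neuronal activity, fell from 1.33 ± 0.21 to 0.385 ± 0.22 CPM. Interferon and antigen presentation genes rose in 10 of 14 cases and fell in none (median 1.24). B2M, the light chain of class I molecules, rose from 26.1 ± 0.79 to 89.6 ± 12 CPM and IFITM3 from 40.8 ± 0.99 to 84.7 ± 13 CPM. Imprinted growth genes rose in 9 of 14 cases and fell in 2. IGF2 gave 102, 98.2 and 92.5 CPM on day 2 and 920.0, 765 and 1039 CPM on day 14 and H19, its neighbour, 151, 152 and 145 CPM on day 2 and 970.1, 805 and 1113 CPM on day 14, both lowest in replicate 2 among the day 14 libraries. MEG3 fell from 0.506 ± 0.14 to 0.025 ± 0.025 CPM, a low level for a non-coding RNA that is abundant in many neurons.

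Chromatin regulators were divided, with 9 higher and 10 lower of 23 polycomb subunits and DNA methylation enzymes. CBX7 fell from 23.8 ± 0.92 to 4.84 ± 0.95 CPM and CBX2 from 251 ± 6 to 88.8 ± 2.8 CPM. EZH2 and DNMT1 fell by 1.12 and 1.19 on the log2 scale. Among the steepest rises of coding genes that belong to no list, A2M, a protease inhibitor, had 1 count on day 2 and 30.5, 19.4 and 28.8 CPM on day 14 (2202-fold higher with a 95% counting interval of 395 to 87006, adjusted p = 1.1e-20). DRD1, a dopamine receptor, had 1 count and 11.3, 15 and 11.8 CPM (1069-fold higher with a 95% counting interval of 192 to 42268, adjusted p = 5.4e-16), and PALMD rose from 0.049 ± 0.059 to 31 ± 3.4 CPM. CFC1, a Nodal co-receptor, rose from 0.144 ± 0.041 to 88.8 ± 9.5 CPM, with a near-identical copy, CFC1B, that can share its reads. SULF1, which trims heparan sulphate and is known from the ventral spinal cord, rose from 22.5 ± 0.48 to 1118 ± 130.0 CPM (log2 change 5.64, SE 0.21, adjusted p = 9.7e-22). The 477 tested numbered zinc finger genes gave 175 higher and 163 lower (104 with TPM values) with a median log2 change of 0.03, close to all genes tested, and 281 solute carriers gave 130 higher and 94 lower (57 with TPM values, median 0.21). Of 36 kinesins 14 rose and 20 fell (median -0.54).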
